A study of Mus musculus with 16 samples.

Results

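The comparison described here asked how vesicle miRNAs of the lung lavage differed between bleomycin-injured and normal mice that lack syndecan-1. Both knockout groups carried the same genotype, labelled C57BL/6-Sdc1-/-. The 4 normal knockout libraries came from mice given PBS, and the 4 bleomycin knockout libraries from mice that had bleomycin for 21 days. The vesicles were taken from bronchoalveolar lavage fluid. Another 8 libraries came from C57BL/6-wildtype mice in the same normal and bleomycin conditions, 4 of each, and these helped to estimate the spread. The age and sex of the mice, and how Sdc1 was inactivated, are not stated in the labels. Whether the libraries are separate mice is not stated either, so the p-values measure only the spread between these libraries. A table of mature miRNAs holds no Sdc1 mRNA, so the genotype could not be checked. Rows reaching 10 CPM (counts scaled to the same total of miRNA reads in every library) in 4 or more of all 16 libraries were kept, which left 325 of 1907 listed miRNAs. The 325 held 99.9% of the CPM of the knockout libraries on average. Of these, 14 passed only thanks to the bleomycin knockout libraries, and such miRNAs had to be high there. Of the 14, 10 were called higher in the comparison below, and the filter favoured their rise: miR-217-5p, miR-142a-3p, miR-142b, miR-147-3p, miR-335-5p, miR-212-3p, miR-21a-3p, miR-298-5p, miR-9-5p and miR-146b-3p. Without the 14, 38 of 311 were called higher (12.2%) and 28 lower (9%). Any miRNAs that passed only thanks to the normal knockout libraries, whose fall the filter would favour, were not taken out.

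Mature miRNAs are short RNAs that guide Argonaute proteins to messenger RNAs, mainly through pairing of the seed, which is bases 2 to 8 from the 5′ end. Cells release part of their miRNA in small vesicles, and lavage collects vesicles shed into the airspaces by epithelium, macrophages and other cells. Syndecan-1 is a heparan sulfate proteoglycan of epithelial surfaces and also takes part in vesicle formation and cargo loading. Bleomycin breaks DNA and is the usual agent for modelling lung fibrosis in mice. In such bulk samples, fewer vesicles from a cell type and less of a miRNA per vesicle cannot be told apart.

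The sequences below are those of the miRNAs on which the results turn, with the seed in capitals, to show which of them share a seed. They are from RefSeq (GRCm38.p6), which matched 280 of the 325 miRNAs by name. The rising miR-21a-5p (mature locus chr11:86584120-86584141, minus strand) and miR-21c share the seed and the first 15 bases.
miR-21a-5p: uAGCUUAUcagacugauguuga
miR-21c: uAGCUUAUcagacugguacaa
miR-146a-5p and miR-146b-5p also share the first 15 bases.
miR-146a-5p: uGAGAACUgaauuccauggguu
miR-146b-5p: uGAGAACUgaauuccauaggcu
miR-132-3p and miR-212-3p share a seed and a precursor locus, chr11:75173388-75173747 on the plus strand.
miR-132-3p: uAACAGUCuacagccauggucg
miR-212-3p: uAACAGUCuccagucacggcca
The 4 tested miRNAs with the seed AAAGUGC come from 2 hairpin clusters, chr14:115043671-115044506 on the plus strand (miR-17-5p, miR-20a-5p) and chr5:138165321-138165818 on the minus strand (miR-93-5p, miR-106b-5p), and are shown because all were called higher.
miR-17-5p: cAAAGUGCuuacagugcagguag
miR-20a-5p: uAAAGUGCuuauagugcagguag
miR-93-5p: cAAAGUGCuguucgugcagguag
miR-106b-5p: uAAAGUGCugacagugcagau
The 2 miR-7 miRNAs share a seed, and miR-184-3p had the largest rise of all.
miR-7a-5p: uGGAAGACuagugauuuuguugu
miR-7b-5p: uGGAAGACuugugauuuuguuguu
miR-184-3p: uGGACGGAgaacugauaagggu
Among the falling miRNAs, the 3 matched miRNAs with the seed GUAAACA were called lower, and miR-351-5p (mature locus chrX:53053315-53053338, minus strand) had the largest fall.
miR-30a-5p: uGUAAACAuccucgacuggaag
miR-30c-5p: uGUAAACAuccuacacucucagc
miR-30e-5p: uGUAAACAuccuugacuggaag
miR-351-5p: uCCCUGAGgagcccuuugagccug
miR-222-3p: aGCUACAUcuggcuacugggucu
miR-142a-3p (chr11:87756903-87756925, plus strand) and miR-142b (chr11:87756906-87756925, minus strand) lie on opposite strands of the same bases, and their CPM values were equal in all 16 libraries, so the 2 cannot be told apart in these data.
miR-142a-3p: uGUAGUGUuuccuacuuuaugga
miR-142b: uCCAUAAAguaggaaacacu
Such equality held for 8 pairs of tested rows, 5 of them known from the coordinates to be opposite strands of the same locus, so the 325 rows hold 317 distinct profiles.

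Depth ran from 2753095 to 12837837 miRNA reads in the normal knockout libraries and from 3450027 to 7802229 in the bleomycin knockout libraries. A count of 0 therefore allowed up to 0.234 to 1.09 CPM, taken as 3 reads, a limit that covers counting error only. The first principal component of the 8 libraries, with 48.7% of the variance, put the normal libraries between -11.4 and -7.49 and the bleomycin libraries between 8.93 and 10.6. The second, with 31.2%, set normal library 2, the shallowest, at -15.6, apart from the other normal libraries at 2.56 to 10.4. Pearson correlations of log2 values across miRNAs, which are not independent replicates, were 0.897 to 0.984 within the normal group, 0.969 to 0.991 within the bleomycin group and 0.872 to 0.944 between them. Of the marker lists, erythrocyte miRNAs made up 0.0177 to 0.688% of reads in normal and 0.176 to 0.887% in bleomycin libraries, leukocyte miRNAs 0.031 to 0.0444% and 0.0335 to 0.0966%, and liver and muscle miRNAs 0.089 to 0.41% and 0.132 to 0.271%. Their part in the results below was not tested. The erythrocyte shares are overstated, since the equal rows of miR-486a and miR-486b were both counted in them.

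After bleomycin, the vesicle miRNA of the knockout held more miRNAs of the injury and inflammation list, led by miR-21a-5p and miR-146b-5p, more miR-7b-5p and miR-184-3p, and less of miR-351-5p and of the 5p arms of miR-30a, miR-30d and miR-30e. A miRNA was called where its limma p, adjusted over the 325 by the Benjamini-Hochberg method, was under 0.05. By this rule 76 of the 325 (23.4%) were called. Of them 48 were higher (14.8%) and 28 were lower (8.62%) after bleomycin. All 4 bleomycin libraries lay above all 4 normal libraries for 60 miRNAs (18.5%) and below them for 40 (12.3%). Without normal library 2 there were 78 calls, 46 higher and 32 lower, of which 61 were among the 76. The split depends on the scale, since CPM values are shares: with miR-21a-5p taken out of the total it was 78 higher and 19 lower (80.4% higher, against 63.2%). It also depends on the model: with log2 reads as a covariate, on the same values, it was 54 higher and 60 lower (47.4% higher). The median log2 difference of all 325 was 0.11, and it moved to 0.44 with miR-21a-5p out of the total and to -0.01 with median-of-ratios scaling.

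**Figure D1:**
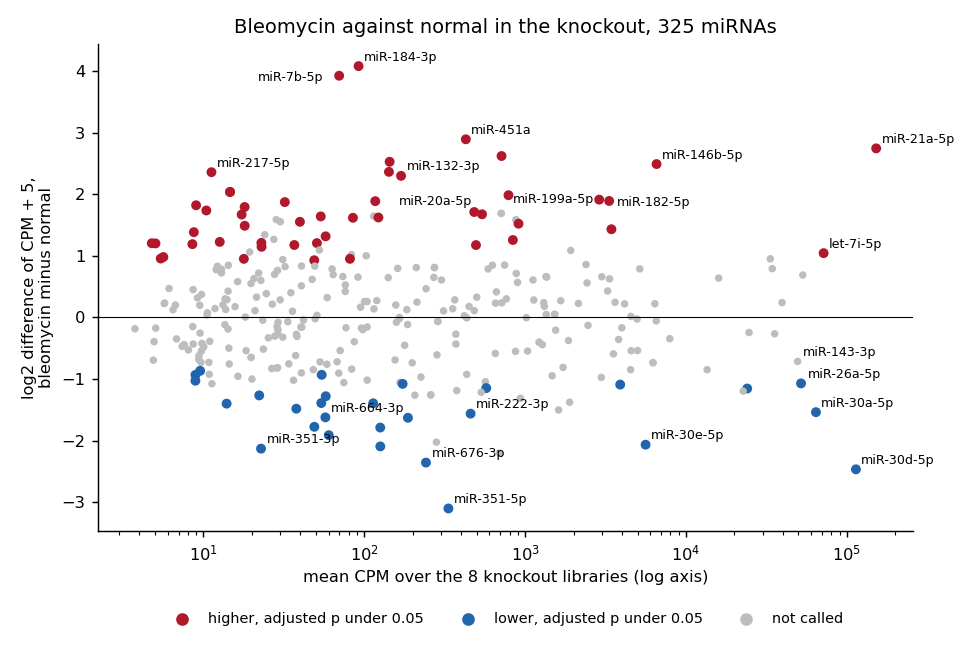
Log2 difference of CPM + 5 (vertical axis, bleomycin minus normal, 4 libraries each) against the mean CPM over the 8 knockout libraries (horizontal log axis), with 1 point for each of the 325 miRNAs. Red points (48) were called higher and blue points (28) lower by limma; miR-21a-5p and miR-30d-5p combine a large difference with the highest levels.

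Calls were found at all levels. Of 135 miRNAs with a mean under 50 CPM over the 8 libraries 22.2% were called, of 122 between 50 and 1000 CPM 27.9%, of 52 between 1000 and 10000 CPM 11.5%, and of 16 over 10000 CPM 37.5%. Below 50 CPM, 22 calls were higher and 8 lower, while among the 16 most abundant 2 were higher and 4 lower. The 22 include all 10 rises that passed the filter only thanks to the bleomycin knockout libraries, so the filter favoured those rises. Falls favoured in the same way, through the normal knockout libraries, were not counted.

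A small number of abundant miRNAs carried most of the exchange in share. miR-21a-5p, a miRNA raised in many injured and fibrotic tissues, took 3.96% ± 0.969 of reads in normal and 26.5% ± 6.17 in bleomycin libraries (SD, n = 4), a gain of 22.5 percentage points. let-7i-5p gained 4.602 points, let-7c-5p 2.33, miR-148a-3p 2.06 and let-7g-5p 1.73. miR-30d-5p lost most, from 19.3% ± 6.94 to 3.45% ± 1.01, which is 15.9 points. The share of miR-30a-5p changed by -6.09 points, that of miR-26a-5p by -3.75, that of miR-143-3p by -3.34 and that of miR-10a-5p by -1.82. The 10 largest gains summed to 36.2 of the 39.3 points gained in all. In mean CPM, which is a share of the total, 163 miRNAs were higher and 162 lower.

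**Figure D2:**
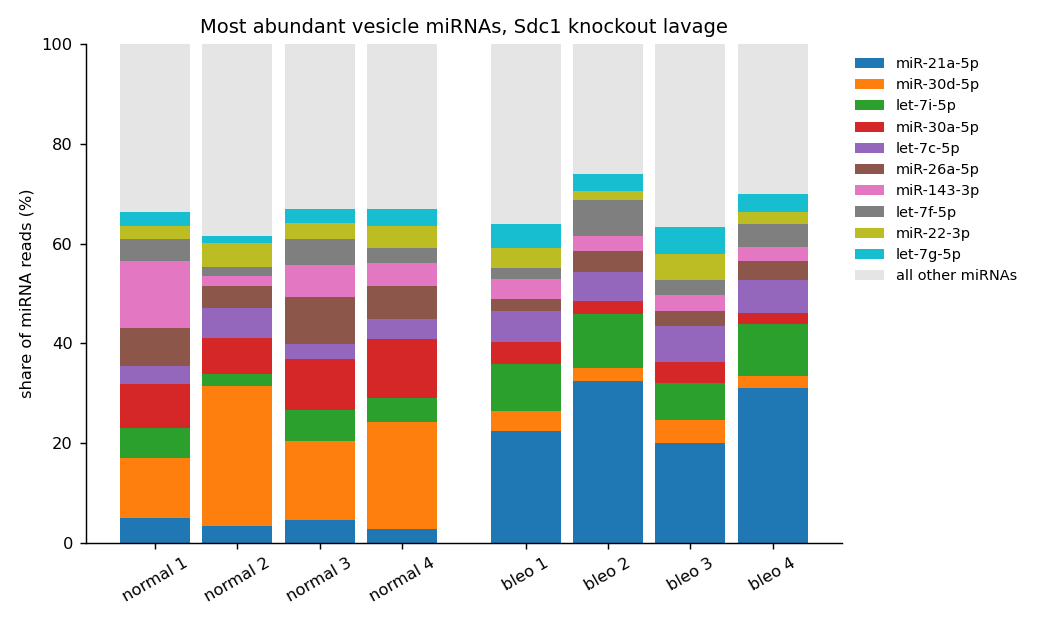
Share of miRNA reads (%, stacked bars from 0 to 100) taken by the 10 miRNAs with the highest mean over the 8 knockout libraries, 1 bar for each library. miR-21a-5p fills 20.03 to 32.4% of each bleomycin library and at most 4.91% of each normal library, and miR-30d-5p at least 12.1% of each normal library and at most 4.52% of each bleomycin library.

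Of the 10 tested miRNAs on the injury and inflammation list, 8 were called higher and 1 lower (14.8% and 8.62% of all 325), with a median log2 difference of 1.57. This list, like the others, was chosen with earlier results of these data known, so its counts describe the members and are not an independent test. Of these 8, miR-21a-3p and miR-212-3p passed the filter only thanks to the bleomycin knockout libraries, and without them 6 of 8 were called higher (12.2% of the 311). miR-21a-5p stood at 49108, 34849, 46169 and 28397 CPM in normal libraries 1 to 4. In bleomycin libraries 1 to 4 it stood at 224080, 324440, 200260 and 309850 CPM. Every bleomycin library was above every normal library by a wide margin (log2 difference 2.74, SE 0.33, adjusted p = 2.65e-05). Its passenger strand miR-21a-3p, near the lower limit of the tested range, was at 2.82, 2.54, 2.34 and 2.64 CPM in normal and 15.7, 12.7, 14.7 and 16.3 CPM in bleomycin libraries (log2 difference 1.38, SE 0.25, adjusted p = 0.000464). miR-21c followed miR-21a-5p, with 186 to 234 reads of miR-21a-5p for each of its own in the 16 libraries, so the 2 rows cannot be taken as independent (log2 difference 2.62, SE 0.40, adjusted p = 0.000161).

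miR-146b-5p and miR-146a-5p are induced by inflammatory signalling and dampen the Toll-like receptor adaptors IRAK1 and TRAF6. miR-146b-5p was at 1385, 3520, 1569 and 1803 CPM in the normal libraries and 13756, 10805, 11686 and 7948 CPM in the bleomycin libraries. The highest normal value was that of library 2, and the groups did not overlap (log2 difference 2.49, SE 0.39, adjusted p = 0.000177). miR-146a-5p was at 529, 497, 381 and 356 CPM in normal and 2125, 884, 1738 and 763 CPM in bleomycin libraries. It fell into a lower and a higher pair among the bleomycin libraries, still all above normal (log2 difference 1.52, SE 0.51, adjusted p = 0.0362), and removal of bleomycin library 1 or 3, or of normal library 1, 3 or 4, ended its call (adjusted p of 0.053 to 0.122).

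The miR-212 and miR-132 hairpins, transcribed together under the transcription factor CREB, gave 3 tested miRNAs that all rose. miR-132-3p was at 73.4, 36.3, 70.9 and 40.8 CPM in normal and 307, 240.3, 243 and 342 CPM in bleomycin libraries (log2 difference 2.30, SE 0.39, adjusted p = 0.000333). miR-212-3p was at 7.503, 2.91, 7.63 and 5.06 CPM and 26.1, 26.9, 30.9 and 31.2 CPM (log2 difference 1.67, SE 0.36, adjusted p = 0.00301). All bleomycin values of both lay above all normal values. miR-212-5p rose by 1.23 (SE 0.32, adjusted p = 0.00855). miR-34a-5p, a direct p53 target, was at 60.3, 35.6, 68.9 and 66.7 CPM in normal and 239, 198, 169.8 and 139.8 CPM in bleomycin libraries (log2 difference 1.62, SE 0.38, adjusted p = 0.00462). The list's exception was miR-222-3p, which is described with the falling miRNAs.

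Leukocyte miRNAs were low in level, and 4 of the 9 tested were called higher and none lower (14.8% and 8.62% of all 325). Of these 4, miR-142a-3p and miR-147-3p passed the filter only thanks to the bleomycin knockout libraries. Without them 2 of 7 were called higher (12.2% of the 311), with a median log2 difference of 1.27 beside 0.04 for the 311. With a filter at 100 CPM 1 of 3 was called higher. miR-142a-3p, which haematopoietic cells make, was at 2.18, 5.45, 1.79 and 0.844 CPM in normal libraries and 22.03, 18.3, 22.1 and 44.3 CPM in bleomycin libraries. It was low in every normal library, and the highest bleomycin value, of library 4, stood clear of the other bleomycin libraries (log2 difference 2.04, SE 0.31, adjusted p = 0.000147). miR-150-5p, the miRNA of mature lymphocytes, was at 45.8, 53.03, 43.6 and 23.6 CPM in normal and 324, 114, 296 and 238 CPM in bleomycin libraries, with library 2 the lowest after bleomycin and no overlap (log2 difference 2.36, SE 0.56, adjusted p = 0.00505). miR-155-5p, of activated macrophages and lymphocytes, was at 17.2, 31.6, 9.503 and 14.98 CPM and 60.9, 40.2, 63.1 and 80.7 CPM (log2 difference 1.55, SE 0.40, adjusted p = 0.00855). miR-147-3p, induced in mouse macrophages by Toll-like receptor ligands, was at 2.02, 0.726, 1.01 and 0.844 CPM and 21.2, 12.9, 15.7 and 17.6 CPM (log2 difference 1.82, SE 0.27, adjusted p = 0.000147). Both of these were also higher in every bleomycin library.

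The myeloid miR-223 did not move as a unit. miR-223-3p was at 91.4, 161, 67.3 and 94.4 CPM in normal and 42.3, 35.4, 58.5 and 45.9 CPM in bleomycin libraries, below in every bleomycin library but not called (log2 difference -1.06, SE 0.50, adjusted p = 0.142). It passed, with adjusted p of 0.0287 to 0.0462, when bleomycin wild-type library 1 was left out, with median-of-ratios scaling, with log2 reads as a covariate and in a fit of the knockout libraries only. miR-223-5p was at 5.41, 45.8, 3.89 and 7.17 CPM and 68.98, 19.7, 55.98 and 12.2 CPM, overlapping and not called (log2 difference 1.27, SE 0.62, adjusted p = 0.157). The gap between its arms, 2.32 on the log2 scale, was the second largest in size of the 79 hairpins with both arms tested.

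Erythrocyte miRNAs varied within each group. miR-451a, which Argonaute 2 matures without Dicer in red cells, was at 289.6, 58.1, 19.2 and 52.4 CPM in normal and 137, 510.5, 602 and 1753 CPM in bleomycin libraries. Normal library 1 lay above bleomycin library 1, so the groups overlapped although the miRNA was called (log2 difference 2.89, SE 0.84, adjusted p = 0.0176). Removal of normal library 3 (log2 difference 2.37, adjusted p = 0.0663) or of bleomycin library 4 (2.31, adjusted p = 0.0684) ended the call, while removal of library 1 moved the difference to 3.57 (normal) or 3.52 (bleomycin). miR-486a-5p, also of red cells, was at 307, 1434, 36.8 and 128 CPM in normal and 414, 279, 1874 and 1201 CPM in bleomycin libraries and was not called (log2 difference 1.69, SE 1.13, adjusted p = 0.284). The other 4 of the 5 tested erythrocyte rows, none called, were both arms of miR-486a and the rows of miR-486b equal to them, so they hold 2 profiles. The list's median of 1.69 was 0.88 without normal library 3 and 2.58 without normal library 2.

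**Figure D3:**
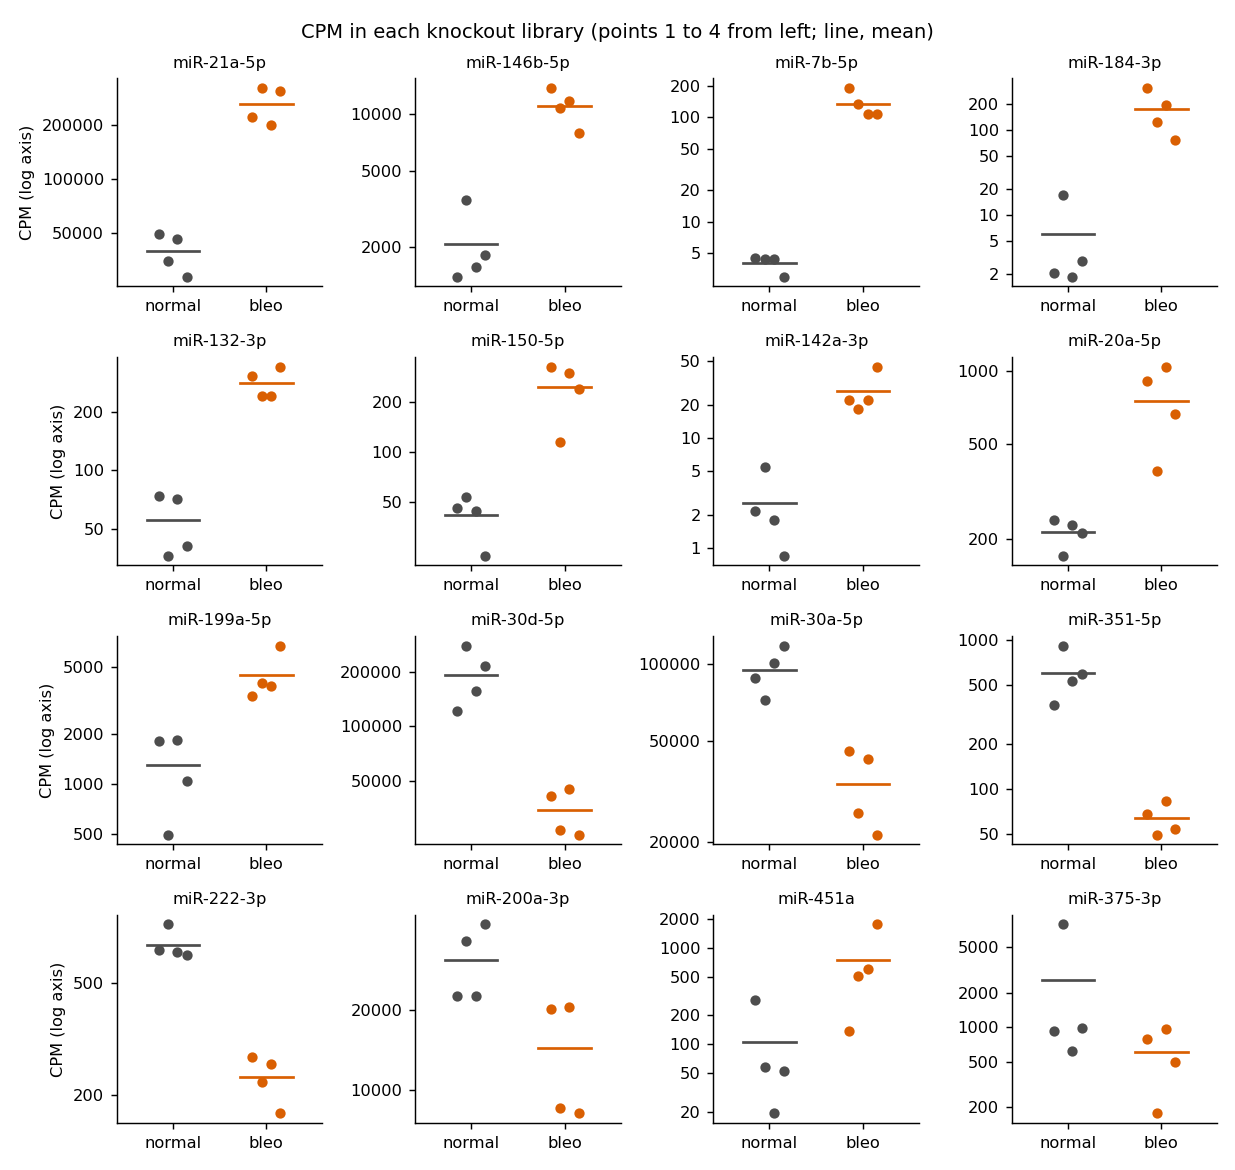
CPM (log axis) of 16 miRNAs in each knockout library, with normal libraries in grey, bleomycin libraries in orange, points 1 to 4 from left to right and a line at the group mean. The groups are apart for miR-21a-5p, miR-7b-5p, miR-30d-5p and miR-351-5p, while miR-451a and miR-375-3p overlap.

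The 2 largest rises were of miRNAs low in normal vesicles. miR-184-3p, an abundant miRNA of the lens, cornea and other epithelia, was at 2.098, 17.1, 1.87 and 2.85 CPM in normal libraries and 312, 126, 199 and 76.1 CPM in bleomycin libraries. Normal library 2 held several times the level of the other normal libraries but still lay far below bleomycin (log2 difference 4.08, SE 0.56, adjusted p = 0.000106). miR-7b-5p, whose family is known from neurons and endocrine cells, was at 4.52, 4.36, 4.36 and 2.95 CPM and 192, 135, 108 and 107 CPM, a narrow range in each group (log2 difference 3.92, SE 0.40, adjusted p = 4.36e-06). miR-7a-5p, with the same seed, was at 504, 396, 514 and 307 CPM and 701, 813, 533 and 936 CPM, higher in all bleomycin libraries but not called (log2 difference 0.79, SE 0.36, adjusted p = 0.137), although it passed with miR-21a-5p out of the total (1.17, adjusted p = 0.0231). Because 5 CPM was added before taking logs, the differences of such low miRNAs are understated. From the recovered reads, edgeR estimated 5.13 for miR-7b-5p.

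miR-217-5p, singled out after its values were seen, is known as a miRNA of pancreatic acinar cells. It was at 0, 0, 0.0779 and 0.105 CPM in the normal libraries, at most 1 read in each, and at 30.7, 14.1, 32.02 and 12.7 CPM in the bleomycin libraries (log2 difference 2.36, SE 0.40, adjusted p = 0.000328), and it is among the 14 that passed the filter only thanks to those libraries. miR-653-5p was at 32.4, 23.2, 57.95 and 49.1 CPM and 234, 254, 221 and 277 CPM, with little spread after bleomycin (log2 difference 2.53, SE 0.38, adjusted p = 0.000147). miR-344-3p was at 54.6, 29.8, 55.4 and 38.6 CPM and 301, 143, 216 and 96.9 CPM (log2 difference 1.89, SE 0.50, adjusted p = 0.00976). miR-218-5p, which lies in introns of Slit2 and Slit3, was at 514, 99.9, 503 and 264 CPM and 820.0, 1362, 847 and 1889.9 CPM (log2 difference 1.98, SE 0.54, adjusted p = 0.0119). In all 4 the lowest bleomycin value exceeded the highest normal value. miR-335-5p, from an intron of the imprinted gene Mest, went from 1.96 ± 1.26 to 18.9 ± 7.68 CPM (SD, n = 4; log2 difference 1.74, SE 0.31, adjusted p = 0.000495).

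The 4 tested miRNAs with the seed AAAGUGC, which promote cell cycle entry in many tissues, rose by similar amounts, between 1.62 and 1.71. miR-20a-5p was at 241, 170.3, 229.9 and 211 CPM in normal and 913, 386, 1046 and 662 CPM in bleomycin libraries (log2 difference 1.71, SE 0.42, adjusted p = 0.00641). miR-93-5p was at 208, 258, 238 and 266 CPM and 959.7, 461, 1244 and 679 CPM (log2 difference 1.67, SE 0.45, adjusted p = 0.0105). miR-17-5p rose by 1.62 (SE 0.39, adjusted p = 0.00536) and miR-106b-5p by 1.64 (SE 0.36, adjusted p = 0.00314). In all 4, bleomycin library 2 was the lowest and library 3 the highest of the bleomycin group, and no bleomycin value reached down to a normal value. Their hairpin neighbours did not all move with them. Of the 8 tested miRNAs of the miR-17, miR-106b and related clusters these 4 were called higher and none lower (14.8% and 8.62% of all 325). The list median was 1.002, and miR-92a-3p had the lowest difference, -0.97, not called. miR-25-3p, from the hairpin cluster of miR-93 and miR-106b, was at 0.05 (SE 0.55).

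miR-30 miRNAs, abundant in lung epithelium and other differentiated tissue, held 19.3% of normal reads in miR-30d-5p alone. The 5p arm of miR-30d was at 121120, 279800, 157380 and 214640 CPM in normal libraries and 41005, 26568, 45191 and 25194 CPM in bleomycin libraries. No bleomycin library came near a normal library (log2 difference -2.46, SE 0.39, adjusted p = 0.000184). miR-30a-5p was at 88249, 71823, 100880 and 117750 CPM and 45285, 25932, 42412 and 21392 CPM (log2 difference -1.54, SE 0.37, adjusted p = 0.00536). miR-30e-5p was at 7729.7, 7094, 8509.8 and 12597 CPM and 3058, 1620.3, 2919 and 1324 CPM (log2 difference -2.06, SE 0.41, adjusted p = 0.00142). Bleomycin libraries 2 and 4 were the lowest for all 3 of these miRNAs, and these 2 libraries also held the most miR-21a-5p. miR-30c-5p fell by less, 1.09 (SE 0.32, adjusted p = 0.0185), and was no longer called after removal of bleomycin library 4 or of normal library 1, 3 or 4 (adjusted p of 0.0501 to 0.0695) or with miR-21a-5p out of the total (-0.70, adjusted p = 0.0962). miR-30b-5p was not called (log2 difference -0.54, SE 0.59, adjusted p = 0.557). Of the 10 tested miRNAs of the family 4 were called lower, all on the 5p arm, and none higher (8.62% and 14.8% of all 325). The family median was -0.47, and it was -0.08 with miR-21a-5p out of the total. The 3p arms differed from the 5p arms: miR-30d-3p was at 0.25 (SE 0.49), the largest gap between arms of the 79 hairpins, 2.71, and miR-30e-3p at -0.40 (SE 0.38), neither called.

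The X-linked miR-322 and miR-503 cluster acts on cell cycle genes in mouse muscle and other tissue. It had 4 of 10 tested miRNAs called lower and none higher (8.62% and 14.8% of all 325), with a median of -0.84. miR-351-5p was at 366, 919, 530.4 and 597 CPM in normal and 68.4, 49.5, 82.9 and 53.5 CPM in bleomycin libraries. Every bleomycin library was far below every normal library (log2 difference -3.10, SE 0.53, adjusted p = 0.000374). Its other arm miR-351-3p was at 18.2, 85.7, 23.1 and 38.2 CPM and 4.64, 2.44, 6.68 and 3.39 CPM (log2 difference -2.13, SE 0.37, adjusted p = 0.000399). miR-503-3p was at 116, 288, 164 and 247 CPM and 66.1, 24.9, 77.2 and 21.5 CPM (log2 difference -2.09, SE 0.54, adjusted p = 0.00855). miR-450a-5p was at 149, 202, 167 and 270.0 CPM and 77.7, 41.9, 57.1 and 39.5 CPM (log2 difference -1.79, SE 0.40, adjusted p = 0.0033). For the last 3 the groups did not overlap either. The negative difference was shared by all 10, from -3.10 to -0.39, while miR-322-5p was not called (log2 difference -0.83, SE 0.42, adjusted p = 0.172). Without normal library 2, 6 of the 10 were called lower.

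miR-351-5p shares the seed CCCUGAG with miR-125a-5p and miR-125b-5p. Of these 3, miR-351-5p alone was called, and all 3 were lower in every bleomycin library, with miR-125a-5p at 1682, 5609, 1991 and 1878 CPM and 1248, 619, 1346 and 741 CPM (log2 difference -1.37, SE 0.58, adjusted p = 0.111).

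Among the other falls, miR-676-3p was at 312, 842, 236 and 258 CPM in normal and 121, 45.5, 75.3 and 43.8 CPM in bleomycin libraries, with the highest value in normal library 2 and no overlap (log2 difference -2.35, SE 0.58, adjusted p = 0.00659). miR-664-3p was at 84.95, 62.1, 117 and 91.7 CPM and 16.2, 28.8, 28.3 and 28.5 CPM (log2 difference -1.62, SE 0.34, adjusted p = 0.00204), with bleomycin library 1 the lowest. miR-365-3p was at 336, 110.1, 439 and 283 CPM and 76.2, 76.9, 80.6 and 91.7 CPM, nearly constant after bleomycin (log2 difference -1.63, SE 0.43, adjusted p = 0.00976). miR-222-3p, which with miR-221 lowers the cell cycle inhibitor p27 and the receptor Kit, was at 654, 809, 645 and 632 CPM and 273, 222, 258 and 172 CPM (log2 difference -1.56, SE 0.42, adjusted p = 0.011). All bleomycin values of these 4 were below all normal values. The other arm, miR-222-5p, was not called (log2 difference 0.51, SE 0.34, adjusted p = 0.284), and neither was miR-221-3p (log2 difference -0.44, SE 0.48, adjusted p = 0.557), the most abundant of the locus chrX:19146294-19146971 (minus strand). miR-221-5p fell by 1.28 (adjusted p = 0.0217), a call ended by removal of bleomycin library 1 or 4, or of normal library 1, 3 or 4 (adjusted p of 0.0544 to 0.0818). The call also ended with miR-21a-5p out of the total (-0.94, adjusted p = 0.0848), with edgeR (adjusted p = 0.0678) and with no filter (adjusted p = 0.0525).

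Several further falls were close to the threshold, and their calls ended under some alternatives while the differences stayed negative. miR-26a-5p was at 77488, 44659, 94341 and 66181 CPM in normal and 25106, 41170, 29019 and 37186 CPM in bleomycin libraries (log2 difference -1.07, SE 0.31, adjusted p = 0.0179). Removal of library 1 or 3 of either group ended its call at differences of -1.01 to -0.91 (adjusted p of 0.0514 to 0.0695). The call also ended with miR-21a-5p out of the total (-0.68, adjusted p = 0.139) and with edgeR (-0.95, adjusted p = 0.114), and normal library 2 was close to the bleomycin values. miR-10a-5p, encoded among the HoxB genes, was at 35653, 37994, 32269 and 26467 CPM and 14647, 12010, 14909 and 18074 CPM without overlap (log2 difference -1.15, SE 0.37, adjusted p = 0.0301), and was no longer called after removal of library 1, 2 or 3 of either group, at differences of -1.16 to -1.05 (adjusted p of 0.0557 to 0.0814). It was not called either with miR-21a-5p out of the total (-0.76, adjusted p = 0.123), with edgeR (-1.06, adjusted p = 0.0633) or with no filter (adjusted p = 0.0731). miR-1964-3p was at 47.3, 242, 34.7 and 82.1 CPM and 34.8, 11.3, 20.96 and 8.36 CPM (log2 difference -1.91, SE 0.62, adjusted p = 0.0337), with normal library 3 and bleomycin library 1 level, and was no longer called after removal of bleomycin library 2, 3 or 4, or of normal library 2 or 4 (adjusted p of 0.055 to 0.106). Its call also ended with miR-21a-5p out of the total (-1.62, adjusted p = 0.0527), with no filter (adjusted p = 0.103) and with a pseudocount of 20 (adjusted p = 0.0534). miR-127-3p, of the imprinted Dlk1-Dio3 region, was at 184, 335, 94.95 and 79.4 CPM and 64.9, 54.9, 44.9 and 49.7 CPM (log2 difference -1.39, SE 0.50, adjusted p = 0.0497), and its call was lost in 10 of the 16 fits that left out 1 library, 6 of them without a knockout library (normal 1 or 2, bleomycin 1, 2, 3 or 4) and 4 without a wild-type library (normal 1 or 3, bleomycin 1 or 2), with adjusted p of 0.0518 to 0.148. The call was also lost with miR-21a-5p out of the total (-1.03, adjusted p = 0.116), with no filter (adjusted p = 0.139), with a filter at 100 CPM (adjusted p = 0.0507) and with a pseudocount of 20 (adjusted p = 0.0605).

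Epithelial miRNAs moved both ways. The sensory and epithelial cluster of miR-183, miR-96 and miR-182 (chr6:30165918-30169737, minus strand) had 2 of 3 tested miRNAs called higher (14.8% of all 325). miR-182-5p was at 1376, 791, 1776 and 1799.6 CPM in normal and 5043, 3558, 6975 and 5305 CPM in bleomycin libraries (log2 difference 1.89, SE 0.42, adjusted p = 0.00314). miR-183-5p was at 1554, 1840.5, 1642 and 2179 CPM and 6278, 3389.9, 6893 and 3717 CPM (log2 difference 1.43, SE 0.38, adjusted p = 0.0103). In both, every bleomycin library was above every normal library. miR-203-3p, which restrains stemness in squamous epithelium, rose by 1.17 (SE 0.40, adjusted p = 0.0413), but the call was lost in 9 fits without 1 library, namely knockout normal 1, 2, 3 or 4, knockout bleomycin 1, 3 or 4, and wild-type normal 2 or 3, with adjusted p of 0.0527 to 0.115. miR-375-3p, of secretory and neuroendocrine epithelium, was at 924, 7943, 622 and 982 CPM and 796, 177, 971 and 498 CPM, with normal library 2 far above the rest, and was not called (log2 difference -1.50, SE 0.93, adjusted p = 0.258). Its difference was -0.69 without that library and -2.53 with log2 reads as a covariate, where it was called (adjusted p = 0.000526). In all, 3 of the 7 miRNAs of the other epithelial list were called higher and none lower (14.8% and 8.62% of all 325), with a median of 0.65. The differences of the list ran from -2.20 to 1.89, and the lowest, larger in size than any of its rises, was not called. Of the 7, 1 was called lower with median-of-ratios scaling, with edgeR and in a fit of the knockout libraries only, and 2 with log2 reads as a covariate.

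The miR-200 family keeps epithelial cells in their state by acting on Zeb1 and Zeb2. Of its 8 tested miRNAs 2 were called lower and none higher (8.62% and 14.8% of all 325), with a median of -0.54. With miR-21a-5p out of the total 1 was called lower and 1 higher, with a median of -0.20. miR-141-3p was at 74.5, 60.7, 73.1 and 109 CPM in normal and 35.7, 17.05, 44.9 and 17.2 CPM in bleomycin libraries, all lower after bleomycin (log2 difference -1.39, SE 0.37, adjusted p = 0.00994). The more abundant miR-200a-3p, with the same seed and the first 15 bases, was at 22680, 36443, 22617 and 42184 CPM and 20187, 8522, 20525 and 8149 CPM, also lower in all, and was not called (log2 difference -1.19, SE 0.52, adjusted p = 0.118). It passed with median-of-ratios scaling, with edgeR, with log2 reads as a covariate and in a fit of the knockout libraries only. miR-200a-5p fell by 1.14 (adjusted p = 0.0433), a call lost in 12 of the 16 fits without 1 library, that is, without any single knockout library or any single normal wild-type library, with adjusted p of 0.0521 to 0.133. The call was also lost with miR-21a-5p out of the total (-0.76, adjusted p = 0.123) and with no filter (adjusted p = 0.103). miR-200b-3p, from the same hairpin cluster, was higher in every bleomycin library, at 10847, 12395, 14665 and 12003 CPM in normal and 18855, 16857, 23168 and 18881 CPM in bleomycin libraries, and was not called (log2 difference 0.64, SE 0.33, adjusted p = 0.177). It was the miRNA called higher with miR-21a-5p out of the total (1.03, adjusted p = 0.015).

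No call was made for the 5 tested miRNAs of the ciliated cell list (miR-34b, miR-34c and miR-449, without miR-34a), with a median of -0.85. miR-34b-3p was at 255, 1143, 166 and 307 CPM in normal and 101, 33.8, 157 and 83.1 CPM in bleomycin libraries (log2 difference -2.02, SE 0.78, adjusted p = 0.0721), which passed with median-of-ratios scaling (adjusted p = 0.0245), with edgeR (0.0183), in a fit of the knockout libraries only (0.0268), with log2 reads as a covariate (-2.86, adjusted p = 6.58e-05) and without bleomycin wild-type library 3 (0.0321). miR-34c-5p, the most abundant of them, was at 23433, 14063, 12296 and 17869 CPM and 12480, 3817, 13218 and 10990 CPM (log2 difference -0.85, SE 0.49, adjusted p = 0.232). miR-449a-5p was not called either, at 0.65 (SE 0.55).

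Of 10 mesenchymal miRNAs 1 was called higher and none lower, near the 14.8% and 8.62% of all 325. This was miR-199a-5p, expressed with miR-214 from the Dnm3os transcript in fibroblasts, at 1798, 498, 1823 and 1044 CPM in normal and 3355, 4013, 3831 and 6719 CPM in bleomycin libraries, the lowest value being that of normal library 2 (log2 difference 1.91, SE 0.45, adjusted p = 0.00505). Its other arm miR-199a-3p overlapped, at 4564, 639, 4405 and 2413 CPM and 3055, 3928, 3329 and 4435 CPM (log2 difference 0.63, SE 0.56, adjusted p = 0.453). The list's median of 0.61 came to -0.0042 without normal library 2, and 3 members were then called lower. Among these was miR-143-3p of smooth muscle, at 134370, 20179, 63783 and 46083 CPM and 39875, 30976, 32198 and 27847 CPM (log2 difference -0.71, SE 0.42, adjusted p = 0.242; -1.18 and adjusted p = 0.0213 without that library). The endothelial miR-126a-3p was at 0.05 (SE 0.64) and miR-126a-5p at -1.26 (SE 0.57), neither called, while the latter passed without normal library 2 (-1.86, adjusted p = 0.0108). None of 6 liver and muscle miRNAs was called, with miR-122-5p of hepatocytes at 22.3, 117, 34.7 and 46.6 CPM and 285, 148, 190.5 and 70.5 CPM (log2 difference 1.64, SE 0.80, adjusted p = 0.154; 0.0331 in a fit of the knockout libraries only).

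**Figure D4:**
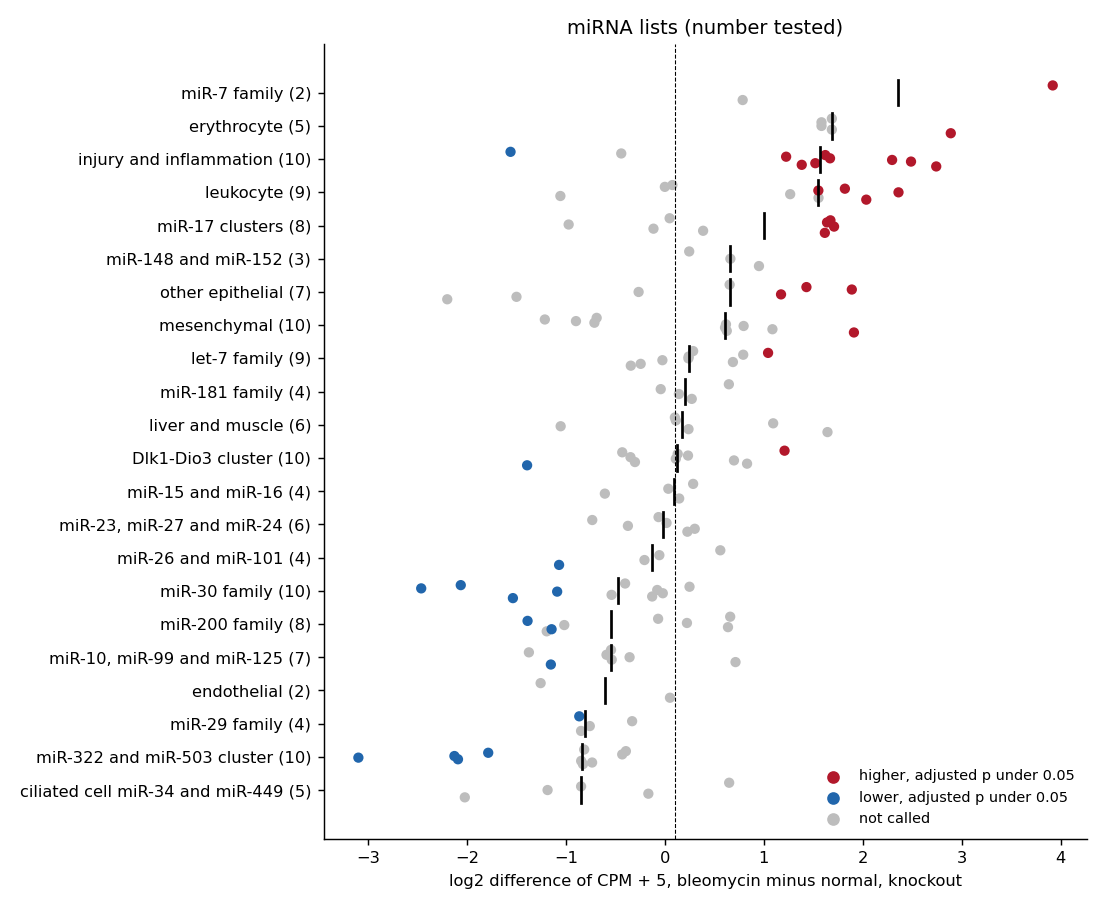
Log2 difference of CPM + 5 (horizontal axis, bleomycin minus normal in the knockout) of each tested member of 22 miRNA lists, with the number tested in brackets, the list median as a black bar and the median of all 325 miRNAs, 0.11, as a dashed line. Red points were called higher and blue points lower; the injury and inflammation list holds 8 red points, and the miR-30 family 4 blue ones.

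Among 9 tested let-7 miRNAs, the tumour suppressor family that restrains Lin28, 1 was called higher and none lower, near the 14.8% and 8.62% of all 325, with a median of 0.24. With miR-21a-5p out of the total 3 were called higher, let-7i-5p, let-7c-5p and let-7g-5p. That miRNA, let-7i-5p, was at 60075, 23632, 63671 and 47407 CPM in normal and 93116, 107460, 74509 and 103800 CPM in bleomycin libraries (log2 difference 1.04, SE 0.33, adjusted p = 0.0256). Normal library 2 was its lowest value by far, and its removal ended the call (0.73, adjusted p = 0.0754), as did removal of normal library 4 or of bleomycin library 1, 2 or 4 (lowest adjusted p 0.0521), median-of-ratios scaling (0.90, adjusted p = 0.145) and edgeR (adjusted p = 0.0784). let-7c-5p, not called (log2 difference 0.69, SE 0.30, adjusted p = 0.118), passed without normal library 2 (0.89, adjusted p = 0.0377). let-7f-5p was at 0.24 (SE 0.52), with bleomycin libraries 1 and 2 far apart, and let-7g-5p at 0.79 (SE 0.30), neither called.

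The 4 tested miR-181 miRNAs, the 4 of the miR-15 and miR-16 group, the 6 of the miR-23, miR-27 and miR-24 clusters and the 3 of the miR-148 and miR-152 group gave no call in either direction, while with miR-21a-5p out of the total 2 of the last 3 and 1 of the miR-181 miRNAs were called higher. Their medians were 0.21, 0.09, -0.02 and 0.66, of which that of the miR-15 and miR-16 group was -0.02 with median-of-ratios scaling and that of the miR-23, miR-27 and miR-24 clusters 0.36 with miR-21a-5p out of the total. miR-148a-3p was at 21899, 33587, 15202 and 21798 CPM in normal and 57108, 36593, 43652 and 37396 CPM in bleomycin libraries, all higher after bleomycin, close to the threshold (log2 difference 0.95, SE 0.35, adjusted p = 0.0554). It passed without normal knockout library 2 (1.15, adjusted p = 0.0229) or wild-type bleomycin library 1, 3 or 4 (adjusted p of 0.0179 to 0.0469), in a fit of the knockout libraries only (adjusted p = 0.0295) and with miR-21a-5p out of the total (1.34, adjusted p = 0.00632). Of 4 miR-29 miRNAs, which lower collagen messenger RNAs, 1 was called lower (8.62% of all 325). This was the low-level miR-29c-5p, at -0.86 (adjusted p = 0.0176), no longer called after removal of bleomycin library 2 or 4, or of normal library 1 or 3 (adjusted p of 0.0501 to 0.0573). miR-29a-3p fell into 2 levels after bleomycin, 5026, 1708, 5181 and 2021 CPM, against 5221, 5354, 5305 and 6361 CPM in normal libraries, and was not called (log2 difference -0.85, SE 0.53, adjusted p = 0.259). Of 10 Dlk1-Dio3 miRNAs 1 was called higher and 1 lower, near the 14.8% and 8.62% of all 325. Their median was 0.12, or -0.17 with log2 reads as a covariate. The riser, miR-541-5p (log2 difference 1.21, SE 0.41, adjusted p = 0.0369), was no longer called after removal of bleomycin library 1, 2 or 3, or of normal library 1, 3 or 4 (adjusted p of 0.0579 to 0.131).

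Both arms were tested for 79 hairpins. The arms had differences of the same sign in 55 and of different sign in 24, with a median gap in size of 0.60. Among the 79, miR-486b and miR-126b repeat miR-486a and miR-126a, since their rows held equal or nearly equal values. Both arms were called for 6 hairpins, in the same direction each time. These were miR-21a, miR-146b, miR-212 and miR-335, which rose, and miR-351 and miR-664, which fell. Of each rising hairpin an arm passed the filter only thanks to the bleomycin knockout libraries: miR-21a-3p, miR-146b-3p, miR-212-3p and miR-335-5p. The filter therefore favoured the agreement of the arms in the rising hairpins. The call of miR-335-3p was lost without bleomycin library 4 (0.80, adjusted p = 0.0518), and that of miR-664-5p without normal library 2 (-1.18, adjusted p = 0.0528). A single arm was called for 23 hairpins.

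The wild type gave its own comparison, from other libraries, of 4 bleomycin with 4 normal libraries. There 112 of the same 325 miRNAs were called (34.5%), 65 higher (20%) and 47 lower (14.5%). Of the 48 called higher in the knockout 37 were called higher in the wild type, which is 77.1% of the knockout list and 56.9% of the wild-type list. Of the 28 called lower 19 were shared, 67.9% and 40.4%. None was called in opposite directions. The test of the difference in the bleomycin effect between the genotypes called 0 of 325 miRNAs by limma, with 24 at an unadjusted p under 0.05, and 0 by edgeR, with 30. So no miRNA can be called particular to the knockout by that test.

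The miRNA closest to such a difference was miR-142a-3p (with its equal row miR-142b). It reached 10 CPM in 5 libraries, 4 of them bleomycin knockout, so the filter kept it only because it was high in that group and favoured a difference in this direction. Its wild-type means were 4.96 CPM normal and 6.42 CPM after bleomycin, a log2 difference of 0.17 (SE 0.31) beside 2.04 in the knockout. The difference between genotypes was 1.87 (SE 0.43, unadjusted p = 0.000413, adjusted p = 0.0671). Over the alternatives its adjusted p ran from 0.0196 to 0.217, and it passed without normal knockout library 2 (0.0353), normal wild-type library 4 (0.0476) or bleomycin wild-type library 3 (0.0196), with log2 reads as a covariate (0.0236) and with miR-21a-5p out of the total (0.0465). miR-212-5p rose less in the knockout, 1.23 against 2.71 in the wild type (difference -1.49, SE 0.45, adjusted p = 0.396), as did miR-7688-5p, 1.49 against 2.58 (adjusted p of the difference = 0.623), and neither difference passed. miR-100-5p was at -0.59 in the knockout and 1.92 in the wild type (adjusted p of the difference = 0.623). miR-199a-5p, at 3.39 in the wild type, and miR-222-3p, at -0.33 and not called there, did not differ between genotypes past the threshold either (adjusted p = 0.623 and 0.623). In the mesenchymal list 6 of 10 were called higher in the wild type (20% of all 325), with a median of 1.96. This contrast of 6 with 1 in the knockout (14.8% of all 325) was not tested as such.

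**Figure D5:**
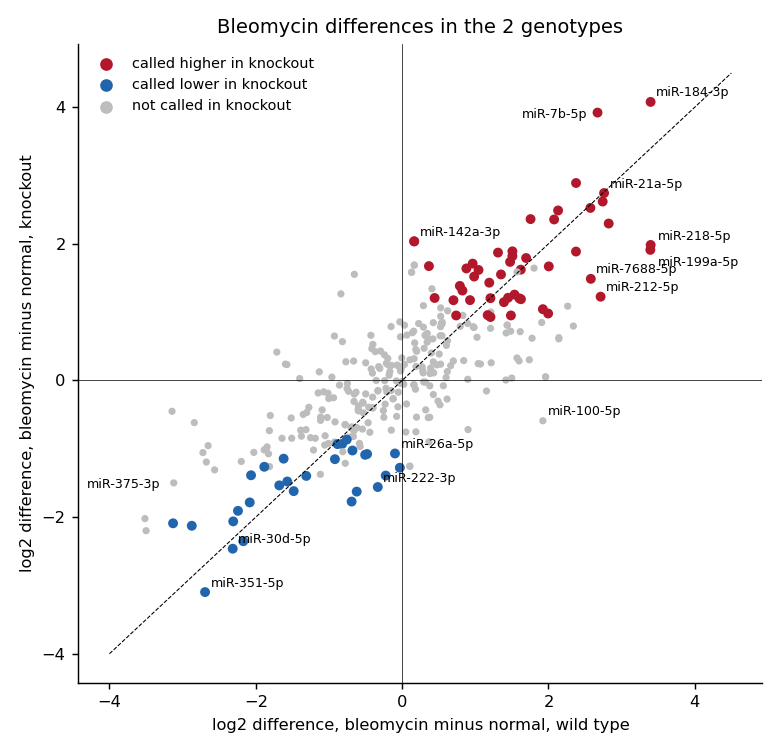
Log2 difference of CPM + 5, bleomycin minus normal, in the wild type (horizontal axis) and in the knockout (vertical axis), 1 point for each of the 325 miRNAs and a dashed line of equal differences. Red and blue points mark the 48 higher and 28 lower calls of the knockout; miR-142a-3p stands above the line and miR-100-5p below it, and no difference between genotypes was called.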

How the data were processed

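The authors deposited 1 table of CPM values for 1907 mature mouse miRNAs in 16 libraries, with 0 other columns. RNA was isolated from lavage vesicles with a QIAGEN miRNA kit, per the labels' protocols. Bowtie2 2.2.3 and the human build GRCh38 are named without a role, per the submitters' processing notes; the counter is not given in the sources used here. All values were whole multiples of a column's smallest step within 0.001 of a whole number (100%), which gave the reads per library.

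Groups came from the sample titles. Log2(CPM + 5) of the 325 miRNAs reaching 10 CPM in 4 or more libraries was fitted with limma 3.58.1 in R 4.3.3 (4 group means, 16 libraries, 12 residual degrees of freedom, eBayes with a trend), with Benjamini-Hochberg adjustment over the 325 at 0.05. All log2 differences are on that scale, which understates the change of low miRNAs. The fit was tested on simulated data in which the most abundant miRNAs stayed unchanged. That test therefore does not cover shifts in share such as that of miR-21a-5p. edgeR 4.0.16 on the recovered reads was an alternative; others were pseudocounts, filters, scalings, a replicate block, a depth covariate, knockout libraries only, and leaving out each library.

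Named were up to 15 largest rises and 15 largest falls among called miRNAs with a mean of at least 50 CPM over the 8 knockout libraries, the 10 most abundant miRNAs, up to 4 members of each of 22 lists, the 5 smallest p of the difference between genotypes and the 5 most abundant uncalled miRNAs. Also named, after their values were seen, were miR-217-5p, miR-335-5p, miR-335-3p, miR-664-5p, miR-223-3p, miR-223-5p, miR-34a-5p, miR-146a-5p, miR-212-3p and other second arms or neighbours of named miRNAs. The members, lists and tests were chosen with earlier results of these data known. Sequences and loci are from RefSeq on GRCm38.p6; hairpins within 10 kb on the same strand were taken as neighbours.

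At the edge of the filter, 8 miRNAs reached 10 CPM in exactly 4 libraries, with means of 3.75 to 10.9 CPM over the 8 knockout libraries, and 10 reached it in 3, with 3.61 to 9.71 CPM.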

Additional observations from a re-analysis of the deposited data

Results flagged for a closer look

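In groups of 4, a library was taken as far from the others where its gap to the nearest, as a share of the group's range, was over Dixon's 95% critical value. Of 156 groups checked (78 named miRNAs in both knockout groups) 13 met it, and chance gives about 5%. Normal library 2 was the outlier in 7 of them. It held 17.1 CPM of miR-184-3p (others 1.87 to 2.85), 842 of miR-676-3p (236 to 312), 809 of miR-222-3p (632 to 654), 15.3 of miR-106b-5p (24.3 to 25.6), 7943 of miR-375-3p (622 to 982), 1143 of miR-34b-3p (166 to 307) and 51.6 of miR-27a-5p (25.98 to 28.6). Of these, miR-27a-5p was called lower (-1.26, adjusted p = 0.0179), and it lost the call without normal library 2 (adjusted p = 0.0511) or bleomycin library 2 (0.0633). Normal library 4 had 2.95 CPM of miR-7b-5p (others 4.36 to 4.52) and 6361 of miR-29a-3p (5221 to 5354), and normal library 1 had 290 CPM of miR-451a (19.2 to 58.1). In the bleomycin group, library 1 had 16.2 CPM of miR-664-3p (28.3 to 28.8), and library 4 had 44.3 CPM of miR-142a-3p and of its equal row miR-142b (18.3 to 22.1).

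Among the 1582 miRNAs below the filter, 4 had at most 3 reads in each normal knockout library, more than 3 reads in each bleomycin knockout library and a mean of at least 5 CPM there. miR-216b-5p and its equal row miR-216c-3p had a bleomycin mean of 5.63 ± 3.12 CPM (SD, n = 4), from 103 reads against 1 read in the normal knockout libraries. miR-465b-5p had 5.63 ± 2.76 CPM, from 102 against 2 reads, and miR-470-5p 5.37 ± 0.787 CPM, from 108 against 3. They were not tested. The rule looked only for appearance after bleomycin, not for loss. Of all 1582, 62 were higher in every bleomycin than in every normal knockout library, and 22 were lower. In the wild type, miR-216b-5p reached 5.48 CPM in a normal library and lay between 1.33 and 8.17 CPM after bleomycin.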

How the results depend on the processing

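The count of 76 calls was 71 to 97 with other pseudocounts, no filter, other scalings, a fit of the knockout libraries only, edgeR (82, 70 of them shared) and the replicate block (72), and 57 to 85 when 1 library was left out. It was 114 with log2 reads as a covariate, 38 with a filter at 100 CPM, where 174 miRNAs were tested, and 145 with the covariate and knockout libraries only, a fit chosen after seeing the data; the cause of the last was not tested. Replicate numbers did not pair the libraries (correlations of deviations -0.584 to -0.405), and a replicate block with knockout libraries only, also chosen after seeing the data, gave 56 calls. The count of differences between genotypes was 2 instead of 0 with miR-21a-5p out of the total and with log2 reads as a covariate, and 0 to 2 when 1 library was left out. Wherever it was 2, these were the equal rows miR-142a-3p and miR-142b, a single profile whose difference the filter favoured. With no filter, the calls of miR-451a, miR-146a-5p, miR-203-3p, miR-541-5p and let-7i-5p also ended (adjusted p of 0.0597 to 0.103). Signs turned for miR-126a-3p (-0.0913 with median-of-ratios scaling, -0.142 with edgeR, -0.579 to 0.5006 when 1 library was left out), let-7f-5p (-0.0532 to 0.5005 when 1 library was left out), miR-22-3p (0.12 with miR-21a-5p out of the total) and miR-100-5p (0.18 with the covariate and knockout libraries only), none of them called in the main fit. let-7f-5p was called higher with the covariate and knockout libraries only (0.80, adjusted p = 0.0313). Below 0.234 to 1.09 CPM, the limit of 3 reads in a library, presence cannot be judged.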
